A study of Mus musculus with 30 samples.

Results

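The comparison set livers of mice injected with phosphate-buffered saline (PBS) and sampled at point 3 against livers of PBS-injected mice sampled at point 2. Its members were chosen by column: 3 libraries of point 3 and 3 libraries of point 2, so 6 of the 30 libraries of the series. The whole study followed liver messenger RNA over 4 h after insulin or PBS, at 5 sampling points, in 3 biological replicates per treatment and point. Mice of all 10 groups were C57BL/6J, a common inbred laboratory strain, were 10 weeks old, and had gone without food for 12 to 16 h before the injection. The point 3 group had received PBS, the vehicle, into the abdominal cavity, and so had the point 2 group, with no allele or agent that set them apart. The insulin groups, used here only for a contrast of the same points, had received human insulin at 0.7 U/kg by the same route. Poly(A) RNA came from the left liver lobe, which holds hepatocytes together with all other cells of the organ. The labels number the points without giving clock times or minutes, so the points are named here by number, and a difference between them stands for time since the injection, length of the fast and time of day together, which cannot be told apart. The labels do not say in so many words that each library came from a separate mouse; if some did not, the p-values measure a spread that is in part technical.

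The liver follows the feeding cycle and the daily cycle at once. In mouse liver the proteins CLOCK and BMAL1 (the product of Arntl) bind E-boxes and turn on the Per, Cry, Nr1d and Ciart genes, whose products then repress CLOCK, BMAL1 or Arntl itself. The same loop drives the transcription factors DBP, TEF and HLF, which bind D-boxes in genes of detoxification and lipid handling. In a fast, hormones such as glucocorticoids and glucagon raise gene programmes of glucose production and fat use. A vehicle arm of a time course shows what moves in such a liver without the drug.

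All 6 libraries were of liver by their markers. The summed level of 16 hepatocyte markers was 61430, 60060 and 59950 FPKM at point 3 and 56580, 57290 and 56000 FPKM at point 2. FPKM is the number of sequenced fragments of a gene scaled to the length of its transcripts and to the size of the library. Replicates within a group had correlations between 0.977 and 0.985 across the genes tested, and no pair shared values. The depth of the libraries is unknown, because the file holds no counts and whole reads could not be recovered from the low values.

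Replicate 3 of point 3 also held transcripts of the intestine. Each gene described that passed between the points is therefore given with and without it. For the contrast with the insulin groups, only the number of genes that passed is given without it. Of 45 small intestine markers, 35 were in the file. In that library 18 of them had a value and none in any of the other 29 libraries, and these 18 summed to 123 FPKM. Defa24, an antimicrobial alpha-defensin of Paneth cells, stood at 43.1 FPKM, the antimicrobial lectins Reg3b and Reg3g at 34.6 and 25.2 FPKM, and the alpha-defensin Defa17 at 9.68 FPKM. Lyz1, the Paneth cell lysozyme, had 10.6 FPKM in that library and at most 3.10 FPKM in the other 29. In all, 37 genes were at 1 FPKM or more there and under 0.1 FPKM in every other library, against at most 13 such genes in any other library. Of these 37 genes, 16 were alpha-defensins, at 5.58 to 43.1 FPKM, whose near-identical copies make the split of reads among them uncertain. None of the 37 entered the test, since a gene had to reach 1 FPKM in at least 3 of the 6 libraries. The 9 intestine markers that were tested, Lyz1 among them, are expressed by liver too, and 0 of them passed. Their median difference was 0.20 on the log2 scale with that library and 0.03 without it. The marker with the highest level, Pigr, the transporter of secreted antibodies, had 385, 361 and 348 FPKM at point 3.

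**Figure D1:**
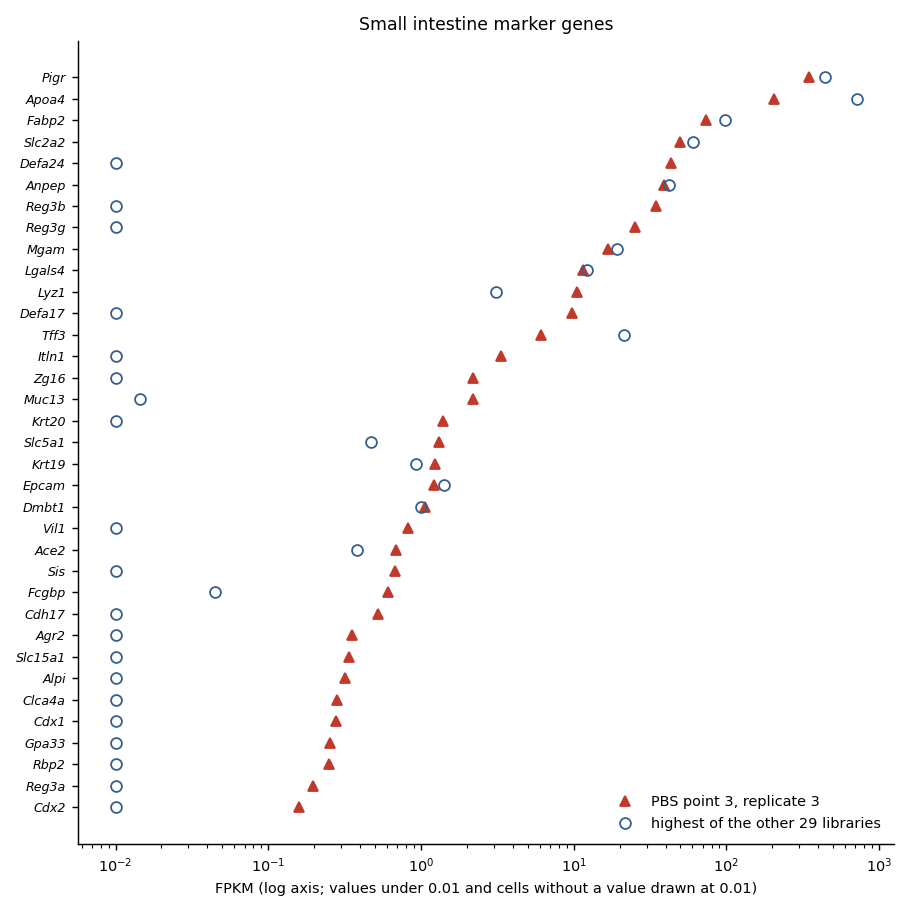
Levels of the 35 small intestine markers in the file (FPKM, log axis) in replicate 3 of PBS point 3 (triangles) and the highest level among the other 29 libraries (circles); cells without a value are drawn at 0.01. Defa24, Reg3b and Reg3g stand at 25.2 to 43.1 FPKM in that library and have no value in the other 29, while Pigr and Fabp2, which the liver also expresses, are alike in both.

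Few genes differed between the points. Of 12124 genes tested, 15 passed at a Benjamini-Hochberg adjusted p below 0.05 in limma, a linear model on log2(FPKM + 1) fitted to all 30 libraries. That is 0.124% of the genes tested, with 11 genes higher at point 3 (0.0907%) and 4 lower (0.033%). At an unadjusted p below 0.05 the number was 859 (7.09%), with 544 higher (4.49%) and 315 lower (2.6%). The 3 libraries of point 3 lay wholly above or below those of point 2 in 1808 genes (14.9%), of which 1016 were higher (8.38%) and 792 lower (6.53%); all 15 genes that passed were among them. Over all genes tested the median difference was 0.03 on the log2 scale. In PBS livers each replicate number had a lane of its own, and with the replicate number as a block 24 genes passed, 17 higher and 7 lower, with all 15 among them. Under quantile normalization 25 passed, 15 higher and 10 lower.

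Without the library that held intestinal transcripts 1 gene passed, and it was none of the 15. The sizes of the 15 differences were then 0.757 to 1.13 times as large, with adjusted p-values of 0.0506 to 0.275 in limma, and 769 genes had an unadjusted p below 0.05. Leaving out another library also lowered the count: 2 and 0 genes passed without replicate 1 or 2 of point 3, and 2, 14 and 1 without replicate 1, 2 or 3 of point 2. Each of the 15 genes lost its call in 4 to 6 of the 6 fits that left out a library, while none changed direction. With the block and without replicate 3 of point 3, 3 genes passed. The gene that passed without replicate 3, Hsd3b1, which makes a steroid dehydrogenase, was named after its values were seen. It had 1.66 and 2.51 FPKM and no value in the 3 libraries of point 3, in the order of their numbers, and no value, no value and 1.15 FPKM at point 2, so its call rests on levels near the filter.

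Genes of the daily clock were among the 15 that rose or fell. Ciart, a repressor of CLOCK and BMAL1, had the largest difference of the 15. It stood at 11.1, 17.4 and 16.8 FPKM at point 3, against 1.78, 5.73 and 2.15 FPKM at point 2. The mean was 4.68 times that of point 2, and the lowest point 3 library lay well above the highest point 2 library. All 15 genes are protein-coding in the GENCODE M21 annotation of GRCm38, where Ciart spans chr3:95878503-95882251 on the minus strand, Usp2 chr9:44067021-44095627 on the plus strand, Map2k6 chr11:110399122-110525522 on the plus strand and Hacl1 chr14:31598730-31641286 on the minus strand. On the log2 scale Ciart rose by 2.02 ± 0.33 (SE, n = 3 each; limma, adjusted p = 0.0124), and the difference was 1.94 without replicate 3 of point 3 (adjusted p = 0.0796).

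Usp2, a ubiquitin protease whose mRNA follows the clock, was at 19.4, 19.8 and 20.6 FPKM at point 3 and at 6.29, 9.55 and 4.21 FPKM at point 2. The point 3 libraries agreed closely, while those of point 2 spread over a wider range without reaching them. Usp2 rose by 1.51 ± 0.26 (SE, adjusted p = 0.0129 in limma; 1.48 and 0.0803 without replicate 3 of point 3). Tef, the D-box factor, had 37.5, 39.1 and 37.3 FPKM at point 3, against 18.6, 25.5 and 15.1 FPKM at point 2. It rose by 0.94 ± 0.19 (SE, adjusted p = 0.0364 in limma; 0.95 and 0.101 without that library).

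The stretches of 250 bases before the annotated starts of Ciart, Tef, Per3 and Usp2 are shown because E-boxes and D-boxes are the letters through which the clock is known to act. These genes were picked by hand, and Per3 did not pass the test. Fkbp5 and Map2k6, which passed and held an E-box or a D-box, are not shown. They come from RefSeq on build GRCm38.p6, read 5′ to 3′ on the strand of the gene. Capitals mark the E-box CACGTG in Ciart and Tef and the D-box TTATGTAA in Per3, while the Usp2 stretch holds neither. That stretch lies before an inner start, within the GENCODE span of Usp2. Both Tef stretches likewise lie within the GENCODE span of Tef, chr15:81802421-81826863. The bases before the first start of either span were not searched. Each motif was searched on both strands, and the motifs do not overlap. Ciart lies on the minus strand at chr3:95882229-95882478, Tef on the plus strand with a pair of starts at chr15:81802423-81802672 and chr15:81811164-81811413, Per3 on the minus strand at chr4:151044666-151044915, and Usp2 on the plus strand at chr9:44084670-44084919.
Ciart: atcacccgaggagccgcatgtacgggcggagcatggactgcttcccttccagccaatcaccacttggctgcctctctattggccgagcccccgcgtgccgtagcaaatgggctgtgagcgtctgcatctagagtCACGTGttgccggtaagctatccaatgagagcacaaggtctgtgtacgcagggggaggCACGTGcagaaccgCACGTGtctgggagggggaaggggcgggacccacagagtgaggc
Tef, first start: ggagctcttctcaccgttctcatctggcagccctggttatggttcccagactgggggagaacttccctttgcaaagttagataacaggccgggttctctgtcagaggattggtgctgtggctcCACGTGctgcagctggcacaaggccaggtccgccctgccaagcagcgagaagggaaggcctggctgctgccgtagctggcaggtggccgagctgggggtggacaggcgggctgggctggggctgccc
Tef, second start: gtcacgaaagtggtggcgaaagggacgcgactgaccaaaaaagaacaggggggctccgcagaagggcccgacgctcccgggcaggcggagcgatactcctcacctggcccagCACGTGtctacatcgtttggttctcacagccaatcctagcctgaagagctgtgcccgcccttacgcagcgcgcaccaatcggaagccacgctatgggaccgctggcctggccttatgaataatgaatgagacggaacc
Per3: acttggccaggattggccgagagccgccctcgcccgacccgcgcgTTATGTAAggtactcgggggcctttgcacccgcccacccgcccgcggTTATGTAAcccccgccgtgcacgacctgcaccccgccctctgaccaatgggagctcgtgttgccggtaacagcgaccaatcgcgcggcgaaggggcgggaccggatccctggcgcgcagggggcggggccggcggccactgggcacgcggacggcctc
Usp2: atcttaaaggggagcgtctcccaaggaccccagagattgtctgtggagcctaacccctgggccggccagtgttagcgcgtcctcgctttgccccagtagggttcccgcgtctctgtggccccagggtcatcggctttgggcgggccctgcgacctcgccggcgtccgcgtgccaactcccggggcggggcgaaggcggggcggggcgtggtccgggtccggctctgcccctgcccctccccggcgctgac

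The Ciart stretch held 3 E-boxes, whose first bases lie 116, 58 and 44 bases before the start. Each Tef stretch held 1, at 127 and 138 bases, and the Per3 stretch held 2 D-boxes, at 205 and 158 bases. Over all 32851 stretches of this length in the table, 6.02% held the E-box and 0.819% the D-box. Of the 15 genes that passed, 12 had an entry, with 16 stretches; the E-box was in 4 stretches of 3 genes (Ciart, Fkbp5 and Tef) and the D-box in 1 stretch, of Map2k6. Among 29 tested clock genes 20 had an entry, with 28 stretches; the E-box was in 5 stretches of 4 genes (Ciart, Cry1, Per1 and Tef) and the D-box in 1 stretch, of Per3. A match is a run of letters and not a measured binding site.

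**Figure D2:**
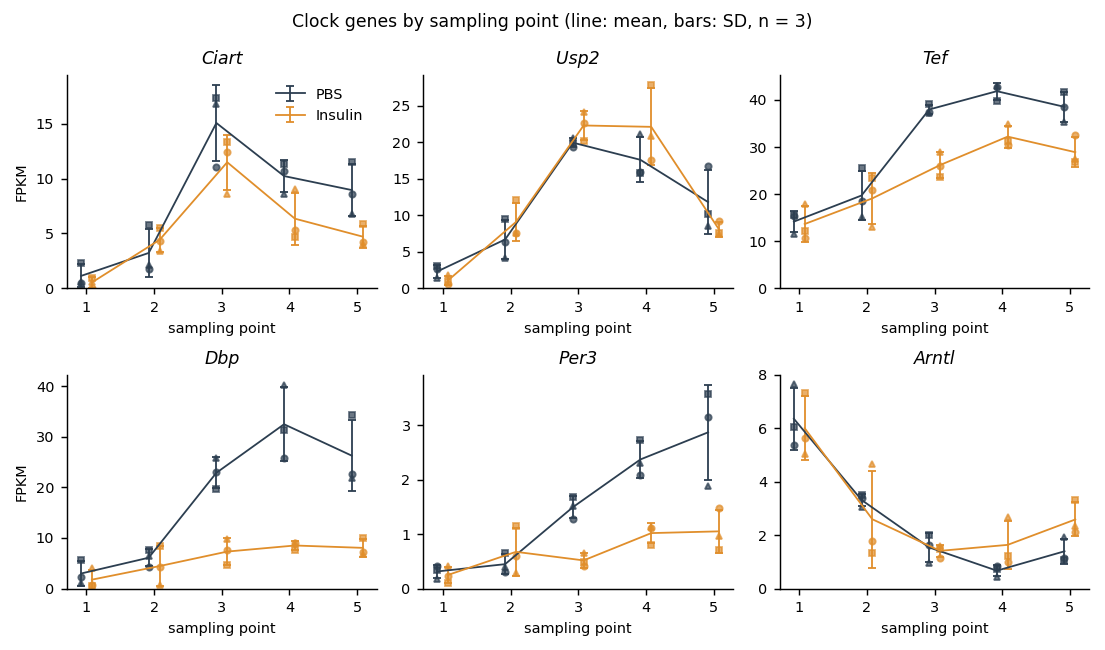
Levels (FPKM) of Ciart, Usp2, Tef, Dbp, Per3 and Arntl at the 5 sampling points in PBS and insulin livers; symbols are libraries (circle, square and triangle for replicates 1, 2 and 3), lines join means and bars are the SD (n = 3). In PBS livers Ciart averages 15.1 FPKM at point 3 and 3.22 FPKM at point 2, and Arntl 1.54 and 3.32 FPKM.

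The wider clock lists were read as counts. Of 18 core clock genes 16 were tested; 1 rose (Ciart), none fell, and 14 had a positive difference, with a median of 0.12 on the log2 scale (0.17 without replicate 3 of point 3). At an unadjusted p below 0.05, 5 were higher and 1 was lower, against 4.49% higher and 2.6% lower over all genes tested. Of 14 clock output genes 13 were tested; 2 rose (Usp2 and Tef), none fell, and the median difference was 0.28 (0.29 without that library). Over all genes tested 55.9% had a positive difference.

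Several clock genes did not pass although their groups did not overlap. Dbp, the first member of the D-box factor family, had 23.1, 19.7 and 25.8 FPKM at point 3, against 4.29, 7.52 and 6.45 FPKM at point 2 (difference 1.77 ± 0.47 SE on the log2 scale, adjusted p = 0.149 in limma). Per3, a Period gene, had 1.28, 1.67 and 1.53 FPKM at point 3, against 0.297, 0.650 and 0.397 FPKM at point 2 (0.79 ± 0.18, adjusted p = 0.0849 in limma). Wee1, a kinase that restrains entry into mitosis and follows the clock, had 2.52, 2.72 and 3.44 FPKM at point 3, against 1.04, 0.919 and 0.800 FPKM at point 2 (1.01 ± 0.25, adjusted p = 0.109 in limma). All 3 genes were at higher levels in every point 3 library than in any point 2 library. The same held for 6 of 16 tested core clock genes, 6 of 13 clock output genes and 8.38% of all genes tested. The reverse held for 1 core clock gene and 6.53% of all genes tested. Arntl was at 1.62, 2.02 and 0.974 FPKM at point 3 and at 3.39, 3.49 and 3.06 FPKM at point 2, the opposite order (-0.79 ± 0.26, adjusted p = 0.334 in limma). The differences of Per2 (0.61), Cry2 (0.54) and Hlf (0.48) did not pass, and those of Nr1d2 (0.25), Per1 (0.20), Cry1 (0.11), Nr1d1 (0.09) and Clock (-0.05) were smaller.

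Across the 5 points of the PBS arm the clock genes did not all turn at the same point. The mean of Ciart was 1.12, 3.22, 15.1, 10.2 and 8.95 FPKM at points 1 to 5, with its highest mean at point 3. Dbp averaged 2.97, 6.09, 22.9, 32.5 and 26.3 FPKM, and Per3 0.314, 0.448, 1.49, 2.37 and 2.87 FPKM. Arntl averaged 6.36, 3.32, 1.54, 0.669 and 1.40 FPKM. Differences between other pairs of points were not tested here.

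The glucocorticoid receptor targets gave 1 gene that rose among 19 tested, with a median difference of 0.06. It was Fkbp5, a cochaperone that holds back the receptor and is itself induced by it. Fkbp5 had 89.7, 96.9 and 102 FPKM at point 3, against 46.0, 61.0 and 50.0 FPKM at point 2. Every point 3 library exceeded every point 2 library by a wide margin, and the gene rose by 0.87 ± 0.16 (SE, adjusted p = 0.0253 in limma; 0.83 and 0.101 without replicate 3 of point 3). In the same list 4 genes were higher and 3 lower at an unadjusted p below 0.05 (all genes: 4.49% and 2.6%). Among them was Lpin1, a phosphatidate phosphatase and coactivator of fasting genes. It had 103, 107 and 119 FPKM at point 3, against 45.3, 66.3 and 39.7 FPKM at point 2 (1.14, adjusted p = 0.101 in limma). Sds, a serine dehydratase (0.51), and the phosphatase Dusp1 (-0.73) were others, and Lpin1, Sds and Dusp1 did not pass.

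Map2k6, the kinase that activates p38 MAP kinase, had the smallest p of the 15 and was in no programme list. It was at 7.15, 6.86 and 6.76 FPKM at point 3 and at 2.91, 2.46 and 1.98 FPKM at point 2. The replicates of each point lay close together and far from the other point, and Map2k6 rose by 1.21 ± 0.20 (SE, adjusted p = 0.0124 in limma; 1.22 and 0.0541 without replicate 3 of point 3).

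Chd9, a chromodomain helicase that remodels chromatin, had 98.6, 129 and 78.7 FPKM at point 3, against 25.5, 30.1 and 27.1 FPKM at point 2. The library with intestinal transcripts was the lowest of the 3 at point 3, and the difference was larger without it (1.83 ± 0.32 SE, adjusted p = 0.0135 in limma, and 2.00 and 0.0506 without it). Foxq1, a forkhead transcription factor, had 4.18, 4.84 and 4.80 FPKM at point 3, against 0.757, 1.58 and 1.18 FPKM at point 2. Its mean was 3.93 times that of point 2 (rise 1.38 ± 0.26 SE on the log2 scale, adjusted p = 0.0253 in limma; 1.36 and 0.101 without replicate 3 of point 3).

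Of the other genes that rose, Scara5, a scavenger receptor that binds ferritin, had 6.24, 7.56 and 5.83 FPKM at point 3, against 0.850, 1.41 and 1.71 FPKM at point 2. Its mean was 4.95 times as high, the largest ratio of means among the 15 (rise 1.71 ± 0.33 SE, adjusted p = 0.0253 in limma; 1.78 and 0.0889 without replicate 3 of point 3). Efhd2, a calcium-binding protein of the actin cytoskeleton, had 17.0, 15.5 and 21.1 FPKM at point 3, against 6.95, 9.76 and 8.87 FPKM at point 2. The library with intestinal transcripts was the highest at point 3, and without it the difference was 0.87 instead of 0.99 (adjusted p = 0.135 and 0.0253 in limma).

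Tns1, a tensin that links integrins to actin, had 29.2, 29.5 and 23.1 FPKM at point 3, against 13.6, 16.5 and 14.2 FPKM at point 2 (rise 0.84 ± 0.17 SE, adjusted p = 0.0437 in limma; 0.95 and 0.0803 without replicate 3 of point 3). Slc9a3r1, a scaffold that anchors membrane transporters, had 55.6, 61.9 and 61.3 FPKM at point 3, against 36.4, 45.0 and 31.9 FPKM at point 2. It had the smallest of the 11 rises, 0.66 ± 0.13 (SE, adjusted p = 0.0400 in limma; 0.64 and 0.135 without that library).

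**Figure D3:**
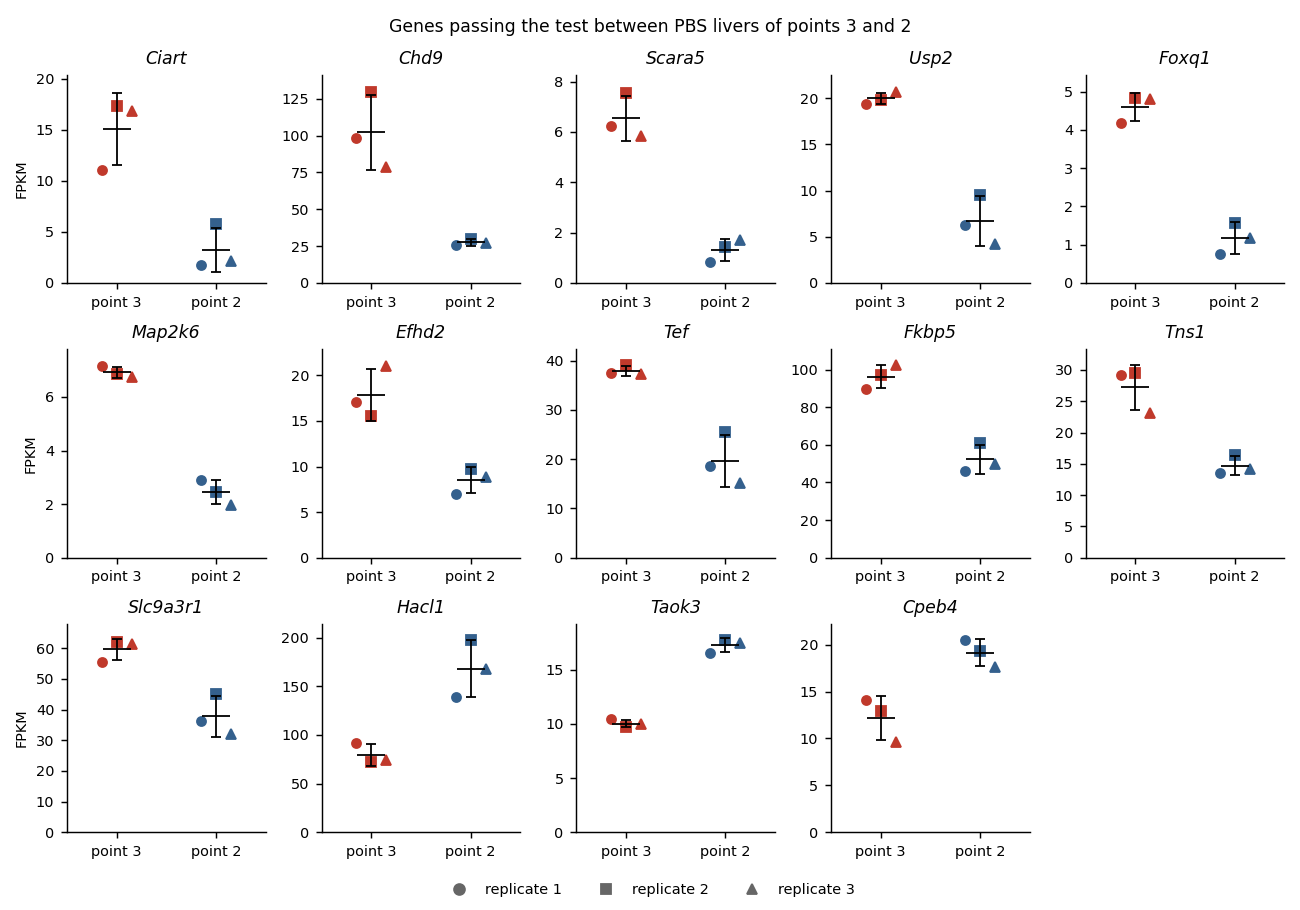
Levels (FPKM, axes from 0) of 14 of the 15 genes that passed, in the 3 libraries of PBS point 3 (red) and the 3 of PBS point 2 (blue); symbols are replicates, and the black line and bars are the mean and SD (n = 3). In each panel the points do not overlap, as for Ciart with 11.1 to 17.4 FPKM at point 3 and 1.78 to 5.73 FPKM at point 2.

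Of the 4 genes that fell, 3 are described, and none of the 4 was in a programme list. Hacl1, a peroxisomal lyase that shortens fatty acids by alpha-oxidation, had 92.0, 71.8 and 74.1 FPKM at point 3, against 139, 197 and 168 FPKM at point 2. Its point 3 mean was 0.472 times that of point 2, and it fell by 1.07 on the log2 scale (SE 0.18, adjusted p = 0.0129 in limma; -1.02 and 0.0803 without replicate 3 of point 3).

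Taok3, a kinase upstream of stress MAP kinases, was at 10.4, 9.73 and 9.97 FPKM at point 3 and at 16.6, 17.8 and 17.5 FPKM at point 2. The spread within each point was small, and Taok3 fell by 0.73 (SE 0.13, adjusted p = 0.0239 in limma; -0.72 and 0.0889 without replicate 3 of point 3). Cpeb4, which binds mRNAs and regulates their translation, had 14.1, 12.9 and 9.57 FPKM at point 3, against 20.5, 19.3 and 17.6 FPKM at point 2. The library with intestinal transcripts was the lowest, and the difference was -0.62 with it and -0.47 without it (adjusted p = 0.0437 and 0.275 in limma).

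The means over the 5 PBS points are given as a description; the genes were chosen for their difference between points 2 and 3, and other pairs of points were not tested. Of the 11 that rose, 6 had their highest PBS mean at point 3, 4 at point 4 and 1 at point 5. Map2k6 averaged 2.13, 2.45, 6.93, 5.44 and 3.75 FPKM at points 1 to 5 and Foxq1 0.636, 1.17, 4.60, 4.04 and 1.82 FPKM. Chd9 averaged 16.5, 27.6, 102, 93.2 and 128 FPKM and Tef 14.2, 19.7, 38.0, 41.9 and 38.5 FPKM. Hacl1 averaged 174, 168, 79.3, 101 and 106 FPKM at the same points, and Cpeb4 15.6, 19.2, 12.2, 12.3 and 12.3 FPKM, about level over the last 3.

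To fill the places of the naming rule, 9 more genes are given by their p, none of which passed. Ivns1abp, a kelch protein of the actin cytoskeleton, had 59.7, 76.6 and 74.7 FPKM at point 3, against 44.0, 51.8 and 33.1 FPKM at point 2 (0.71, adjusted p = 0.0598 in limma). Trp53inp1, a stress protein induced by p53, had 30.2, 29.5 and 39.7 FPKM at point 3, against 72.3, 53.9 and 62.5 FPKM at point 2 (-0.91, adjusted p = 0.0598 in limma). Crot, the peroxisomal carnitine octanoyltransferase, had 280, 296 and 258 FPKM at point 3, against 481, 423 and 431 FPKM at point 2 (-0.68, adjusted p = 0.0985 in limma). In all 3 genes the groups were apart, which the naming rule required (all genes: 14.9%). Ddc, which makes dopamine and serotonin (-0.70), Abtb2 (-0.78), the calcium sensor Ncald (-0.66), Dph6, an enzyme of diphthamide synthesis (-0.49), the ubiquitin ligase Rnf125 (-0.80) and Glce, an epimerase of heparan sulfate (-0.53), had adjusted p-values between 0.0688 and 0.101 in limma.

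Of 32 lists of liver programmes, 29 had no member that passed. The lists held 480 distinct genes that were tested, of which 4 rose and none fell: Ciart, Usp2, Tef and Fkbp5. The lists below are given by their counts at an unadjusted p below 0.05 and their median differences, which stand beside a median of 0.03, 4.49% higher and 2.6% lower over all genes tested.

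In the list of lipid droplets and lipolysis, 16 genes were tested, and 6 were higher and 0 lower at an unadjusted p below 0.05 (all genes: 4.49% and 2.6%), with a median of 0.32 (0.25 without replicate 3 of point 3). After Lpin1 came Plin4, a lipid droplet coat protein, with 2.52, 3.53 and 1.74 FPKM at point 3 and 1.06, 1.10 and 1.16 FPKM at point 2 (0.74, adjusted p = 0.106 in limma). Fitm1, which partitions fat into droplets (0.92), and Lipe, the hormone-sensitive lipase (0.52), did not pass either.

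The acute phase and interleukin-6 list had 19 genes tested, with 7 higher and 0 lower at an unadjusted p below 0.05 (all genes: 4.49% and 2.6%) and a median of 0.26 (0.37 without replicate 3 of point 3). Il6ra, the interleukin-6 receptor, had 27.1, 27.6 and 23.3 FPKM at point 3, against 17.2, 18.4 and 15.2 FPKM at point 2 (0.59, adjusted p = 0.0688 in limma). Cxcl1, a neutrophil attractant, had 6.76, 7.58 and 5.16 FPKM at point 3, against 1.67, 2.08 and 1.26 FPKM at point 2 (1.49, adjusted p = 0.0985 in limma). The metalloreductase Steap4 (0.77) and Socs3, an inhibitor of cytokine signalling (0.96), were above point 2 in every point 3 library without passing (all genes: 8.38%). Neutrophil markers summed to 12.8, 12.4 and 12.2 FPKM at point 3 and to 6.58, 5.74 and 10.2 FPKM at point 2 (7 of 9 in the file, 3 tested), and Kupffer cell markers to 204, 214 and 184 FPKM at point 3 and to 162, 188 and 162 FPKM at point 2 (12 of 12). Their part in the acute phase values was not tested. In whole tissue, fewer cells of a type and less RNA per cell cannot be told apart.

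The growth arrest and p53 list leaned the other way, with 0 higher and 4 lower of 14 at an unadjusted p below 0.05 and a median of -0.18 (-0.18 without replicate 3 of point 3). Beside Trp53inp1 these were Gadd45b, a stress sensor with 1.98, 2.44 and 1.98 FPKM at point 3 and 4.06, 5.13 and 8.01 FPKM at point 2 (-1.06), Ddit4, an inhibitor of mTORC1 with 6.33, 8.70 and 8.33 FPKM at point 3 and 15.1, 15.1 and 16.5 FPKM at point 2 (-0.93), and the antiproliferative factor Btg1 (-0.43). None passed, and in all 4 the point 3 libraries were the lower ones, as in 6.53% of all genes tested.

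Among immediate early genes 0 of 16 passed, with 1 higher and 3 lower at an unadjusted p below 0.05. Klf2 (-0.79) and Egr1 (-1.16) were lower at point 3, although Egr1 overlapped because replicate 3 had 11.0 FPKM and the other point 3 libraries 3.76 and 4.45 FPKM. Junb was the higher one (0.76). In the cytochrome P450 list 0 of 18 passed and 3 were higher at an unadjusted p below 0.05: Cyp2a5, the coumarin hydroxylase, whose reads may be shared with a near-identical copy (201, 235 and 219 FPKM at point 3, against 92.7, 125 and 92.1 FPKM at point 2; 1.08), Cyp2b10, a target of the receptor CAR (1.27), and Por, the electron donor of all these enzymes (0.56). Adjusted p-values of the 3 were 0.269 to 0.447 in limma.

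The median of the sterol synthesis list had another sign without the library that held intestinal transcripts. Its summed level was 304, 355 and 660 FPKM at point 3 and 310, 391 and 312 FPKM at point 2. Replicate 3 of point 3 was the highest of the 6 libraries in 19 of the 20 genes tested, against 20.5% of all genes. The median difference was 0.25 with that library and -0.15 without it, and 0 genes passed. Dhcr7, the reductase of the last step of cholesterol synthesis, had 7.67, 6.40 and 16.8 FPKM at point 3, against 4.90, 5.30 and 8.97 FPKM at point 2 (0.54, adjusted p = 0.750 in limma). In fatty acid synthesis the same library was the highest in 10 of 17 genes (58.8%), with Thrsp, a lipogenic nuclear protein (1.20), and the elongase Elovl5 (-0.81) not passing. That share was not particular to lipid synthesis. It was 56.2% in the proteasome list and 50.0% in the gluconeogenesis list, and 0.0% in the unfolded protein response list. The part of the intestinal RNA in these values was not tested.

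Other programmes had no member that passed, and their medians and counts follow. The bile acid median was the lowest of the 32 lists with replicate 3 of point 3, but not without it. It was then -0.1756, against -0.1785 in the growth arrest and p53 list and -0.1785 in the heat shock list. A positive difference was seen in 5 of 16 bile acid, 3 of 17 heat shock and 3 of 16 unfolded protein response genes. Over all genes tested the share was 55.9%. The unfolded protein response median was -0.14 with replicate 3 of point 3 and -0.04 without it. Heat shock genes had a median of -0.16 with 0 of 17 at an unadjusted p below 0.05, and bile acid genes -0.24 with 0 higher and 1 lower of 16, the transporter Abcb4 (-0.24); Cyp8b1, the sterol 12-alpha-hydroxylase, had -0.53. Gluconeogenesis genes had a median of 0.08, with 2 higher (Sds and the aminotransferase Gpt, 0.44) and 0 lower of 14, and CREB target genes 0.06 with none of 10. In the insulin receptor and Foxo list 2 were higher and 3 lower of 20, among them the repressor Bcl6 (2.80, 7.89 and 4.23 FPKM at point 3, against 18.3, 9.29 and 17.5 FPKM at point 2; -1.46, adjusted p = 0.435 in limma), and in the IGF axis Socs2, which restrains growth hormone signalling, was the lower one (-1.16). Osgin1 was the higher one among 14 antioxidant genes (1.02). The medians of ribosomal protein genes (0.04), the mitochondrially encoded genes (-0.09) and interferon genes (-0.02) were near 0.

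**Figure D4:**
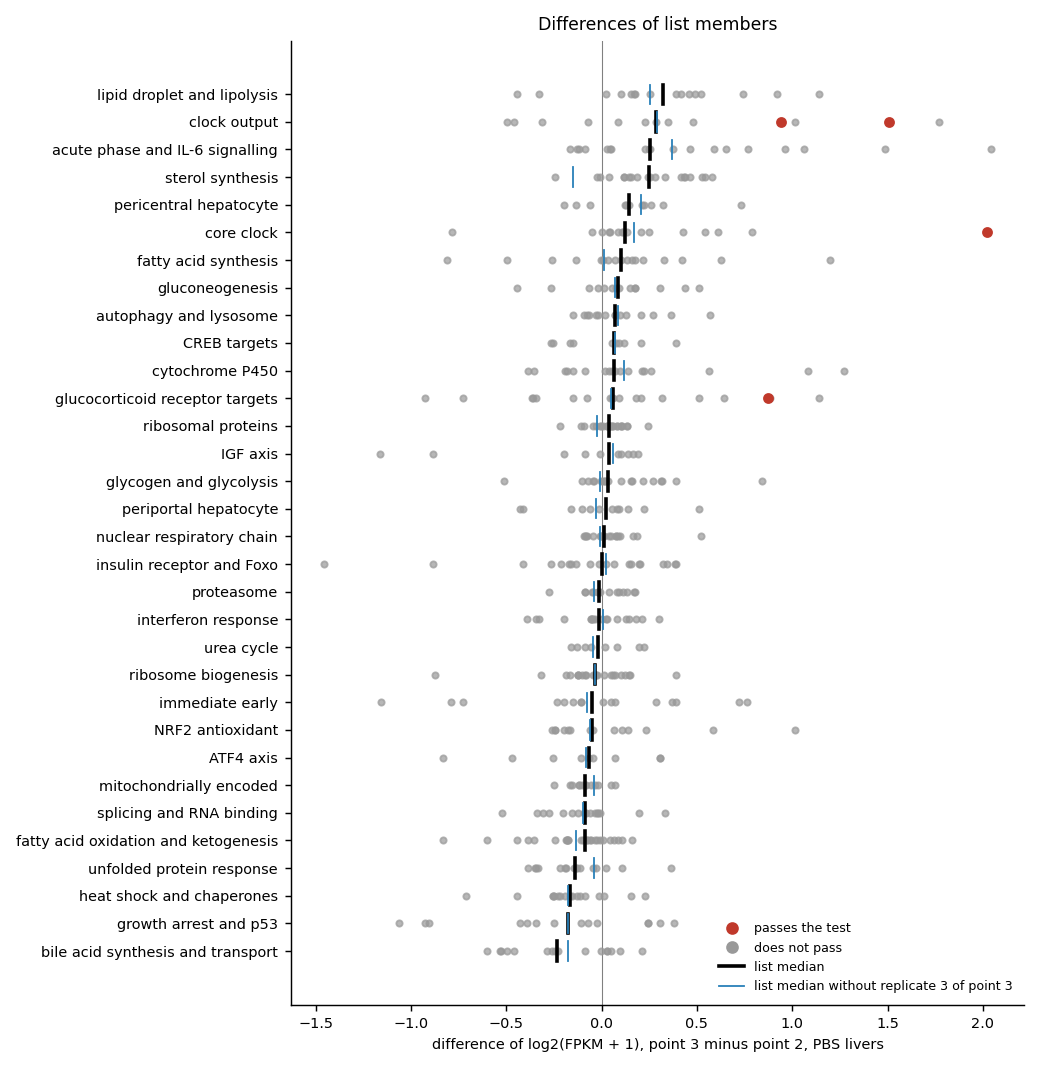
Differences of log2(FPKM + 1), point 3 minus point 2, for each tested member of 32 programme lists in PBS livers; red points passed the test, grey points did not, black bars are list medians and blue bars the medians without replicate 3 of point 3. The sterol synthesis median lies at 0.25 with that library and at -0.15 without it, and the passing genes are in the clock and glucocorticoid lists.

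Erythroid markers were higher at point 3 in every library, without passing. Their sum was 417, 601 and 399 FPKM at point 3 and 335, 219 and 287 FPKM at point 2. Of 8 markers 5 were tested, with 4 higher at an unadjusted p below 0.05 (all genes: 4.49%). Their median difference was 0.75 (0.86 without replicate 3 of point 3). The globin Hbb-bs had 135, 158 and 116 FPKM at point 3, against 109, 52.5 and 76.8 FPKM at point 2; globin copies share reads, so the split among them is uncertain. No marker list had a member that passed. Stellate cell and fibroblast markers summed to 191, 197 and 193 FPKM at point 3 and to 160, 182 and 172 FPKM at point 2, sinusoidal endothelial markers to 129, 116 and 97.9 FPKM at point 3 and to 96.8, 121 and 101 FPKM at point 2, and T and NK cell markers to at most 2.20 FPKM at point 3 and 2.42 FPKM at point 2. The part of blood or of other cells in the differences of the 15 genes was not tested.

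The same points were then compared in the insulin arm, and the difference of the differences was tested, to ask whether what moved in PBS livers moved otherwise under insulin. The arms share no library, but they were run on different lanes. In each arm, points 3 and 2 of a replicate number shared a lane. A shift common to a lane therefore drops out of the difference between the points. Any other effect of lane was not tested. In insulin livers 101 of the 12124 genes passed between the points (0.833%). Of the 15 genes that passed in PBS livers, 14 had the same sign under insulin and 4 passed there too: Usp2 (1.51 in PBS and 1.24 in insulin livers), Tns1 (0.84 and 0.75), Taok3 (-0.73 and -0.70) and Cpeb4 (-0.62 and -0.74). Usp2 in insulin livers stood at 22.6, 20.2 and 24.2 FPKM at point 3, against 7.64, 12.1 and 7.53 FPKM at point 2. Ciart rose by 2.02 in PBS livers, and its difference was 1.20 in insulin livers (adjusted p = 0.0942 in limma), a difference between arms of 0.82 with a 95% interval of -0.14 to 1.77.

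None of the 15 passed the test of the difference between arms, and 7 had an unadjusted p below 0.05 there. The 15 were chosen for a large PBS difference, which is itself part of this contrast. Their unadjusted p-values and intervals therefore lean toward a difference between arms and are given as a description. Map2k6 had a difference of 1.21 in PBS livers and 0.16 in insulin livers (difference 1.05, 95% interval 0.48 to 1.62, adjusted p = 0.223 in limma), and Scara5 of 1.71 and 0.00 (1.71, 0.76 to 2.66, adjusted p = 0.244). For Hacl1 the differences were -1.07 and -0.18 (-0.88, -1.41 to -0.36, adjusted p = 0.331 in limma). For Taok3 the interval of the difference between arms was -0.41 to 0.36 and for Usp2 -0.48 to 1.02.

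Over all genes, 12 passed the test of the difference between arms (0.099%), 4 with a PBS difference above the insulin difference and 8 with one below it. Of the 12, 11 passed between the points in insulin livers and 0 in PBS livers, where 5 had an unadjusted p below 0.05. Ppargc1a, the coactivator of fasting metabolism, was at 2.11, 1.71 and 1.74 FPKM at point 3 of PBS livers and at 2.17, 1.61 and 1.40 FPKM at point 2, a difference of 0.07 ± 0.15 (SE). In insulin livers it was at 20.3, 17.5 and 13.2 FPKM at point 3 and at 1.39, 1.17 and 1.31 FPKM at point 2, and the difference between arms was -2.88 ± 0.21 (SE, adjusted p = 5.0e-09 in limma). The libraries of the points overlapped in PBS livers and lay far apart in insulin livers. Without replicate 3 of PBS point 3, 6 genes passed the test of the difference between arms, and which genes these were is not given here.

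Txnip, an inhibitor of glucose uptake, had 55.5, 54.6 and 56.1 FPKM at point 3 of PBS livers, against 38.9, 42.4 and 50.1 FPKM at point 2 (0.34, not passing), and the difference between arms was -1.50 (adjusted p = 0.00388 in limma). Socs3 had 4.20, 4.84 and 3.26 FPKM at point 3 of PBS livers, against 1.18, 1.50 and 2.21 FPKM at point 2. In insulin livers Socs3 fell to 2.32, 2.81 and 2.24 FPKM at point 3, against 8.43, 17.1 and 7.68 FPKM at point 2, so the signs in the arms were opposite (difference 2.69 ± 0.46 SE, adjusted p = 0.00820 in limma). Junb (2.74) and the ligand Efna1 (2.91) followed the same order. Angptl4, an inhibitor of lipoprotein lipase, had 77.9, 103 and 88.8 FPKM at point 3 of PBS livers and 82.8, 102 and 77.6 FPKM at point 2, with a difference between arms of -1.21 (adjusted p = 0.00820 in limma).

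**Figure D5:**
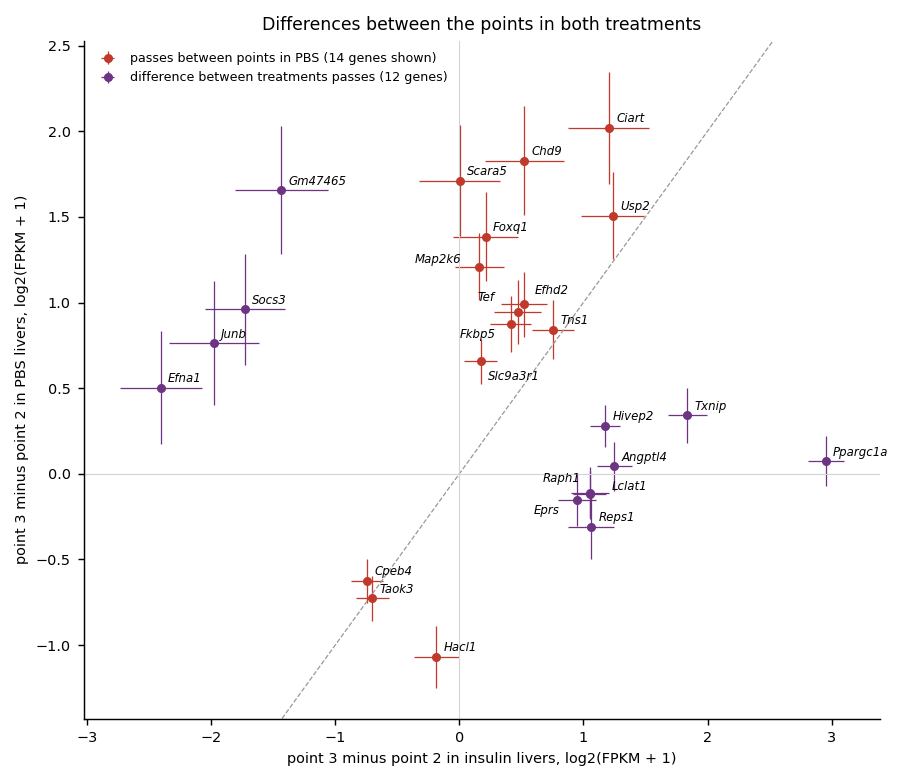
Difference of log2(FPKM + 1), point 3 minus point 2, in PBS livers (vertical) and in insulin livers (horizontal), with bars of 1 SE from limma; red are 14 of the 15 genes that passed in PBS livers, purple the 12 whose difference between arms passed, and the dashed line marks equal differences. Usp2, Tns1, Taok3 and Cpeb4 lie near the line, Scara5 lies at 1.71 in PBS and 0.00 in insulin livers, and Ppargc1a at 0.07 and 2.95.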

How the data were processed

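RNA of the left liver lobe was selected for poly(A) tails and made into directional libraries, per the labels' protocols. HISAT2 2.1.0, SAMtools 1.9 and StringTie 2.0.3 were used on GRCm38 (mm10), per the submitters' processing notes. Neither the annotation nor the strand setting is given in the sources used here, so reads of overlapping genes may be shared. The deposited values were FPKM per gene, scaled by the authors to transcript length and library size, for 29117 genes in 30 libraries. All sample columns were mapped by title. Cells without a value (32.2% over the 30 libraries, with none exactly 0) were set to 0. Of the genes tested, 118 lacked a value in at least 1 of the 6 libraries compared. Such cells in the other libraries of the fit were not counted. Because FPKM are not counts, no count test was run.

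A gene was tested where at least 3 of the 6 libraries reached 1 FPKM (12124 genes). The model, in limma 3.58.1 under R 4.3.3, gave log2(FPKM + 1) 10 group means over all libraries, with the prior variance following intensity and 20 degrees of freedom left. Tests were two-sided, with Benjamini-Hochberg adjustment over all genes tested. A fold change on this scale understates that of genes at low levels. The scripts were tested on simulated data. Sample titles give a replicate number, and in PBS livers each number goes with its own lane name, so the numbers pair libraries by lane; deviations of same-numbered libraries had correlations of 0.104, 0.0484 and 0.034, against -0.141 to 0.0793 for other pairs.

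The comparison, the lists and the markers were chosen with earlier results of these data known. Named genes were the 12 highest and 12 lowest differences that passed with and without replicate 3 of PBS point 3, filled by smallest p because 0 genes met it; up to 4 genes per list by p; members of the clock lists; the intestine markers highest in that library; and the genes with the smallest p between arms. Other genes that passed between arms, Hbb-bs, Pigr and Hsd3b1 were named outside the rule. Some genes the rule names are left out of the text and figures. Gene IDs were matched to GENCODE M21 (29066 of 29117). Alternatives used 0.1 as the pseudocount, every gene with a value or those averaging 5 FPKM, scaling by median ratios or by quantiles, the replicate number as a block, fits of fewer libraries, genes with no missing cell, and each library left out in turn.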

Additional observations from a re-analysis of the deposited data

Results flagged for a closer look

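In 12 genes the difference between points 3 and 2 was not the same in PBS as in insulin livers by limma's test of the difference itself, at an adjusted p below 0.05 over all genes. In 8 of them the PBS difference was the lower one: Ppargc1a (PBS minus insulin -2.88), Txnip (-1.50), Reps1 (-1.37), Angptl4 (-1.21), Lclat1 (-1.17), Raph1 (-1.17), Eprs (-1.10) and Hivep2 (-0.89). In 4 it was the higher one: the long noncoding RNA Gm47465 (3.09), Efna1 (2.91), Junb (2.74) and Socs3 (2.69). Gm47465 had no value in any library of PBS point 2 or of insulin point 3, and such cells were set to 0, so its value depends on the pseudocount. The arms were run on different lanes, but points 3 and 2 of a replicate number shared a lane in each arm. A shift common to a lane therefore drops out, and any other part of the lane was not tested.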

How the results depend on the processing

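The number of genes that passed between the points of PBS livers, 15, was 8 with a pseudocount of 0.1, 7 with no filter, 25 under quantile normalization, 24 with the replicate block and 3 with the block and without replicate 3 of point 3; leaving out each library gave 0 to 14, and with 0 passing (without replicate 2 of point 3) 706 genes had an unadjusted p below 0.05 in limma. The other alternatives gave 14 to 18, but with other genes among them: 5 of the 14 from the fit of the 6 libraries, 9 of the 14 from the 15 PBS libraries, 12 of the 17 at a mean of 5 FPKM, 13 of the 18 with median-ratio scaling and 15 of the 16 with no missing cell were among the 15. The number of list members that passed, 4, was 2 with a pseudocount of 0.1, 2 with no filter and 2 with the block and without replicate 3 of point 3, and 0 to 4 with a library left out (4 without replicate 2 of point 2, 1 without replicate 1 of point 3 and 0 without any other). The number of genes that differed between arms, 12, was 6 to 20 with a library left out (6 without replicate 3 of PBS point 3, 7 without replicate 1 of PBS point 2, 7 without replicate 1 of insulin point 2 and 20 without replicate 2 of insulin point 3), and 9 to 18 otherwise. The cause of these shifts was not tested. None of the 15 genes changed sign under any alternative run; Map2k6 passed under 10 of 15 alternatives, Ciart and Hacl1 under 10 of 16 and Cpeb4 under 3 of 16. Genes that did not pass changed sign when a library was left out: Clock ranged from -0.13 to 0.037, Cry1 from -0.055 to 0.25, Ppargc1a from -0.014 to 0.19 and Angptl4 from -0.060 to 0.16. Depth was not recovered, so no floor can be given for genes at low levels.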
